A study of Drosophila melanogaster with 2 samples.

Results

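Genes for the subunits of the proteasome, and for the testis-type copies of some of these subunits, were compared between whole adult Drosophila melanogaster males that overexpressed the microRNA miR-305 and males that did not. The genes were chosen by name, with earlier results of these data known. Of 15906 features in the deposited table, 46 carried a symbol that begins with Prosalpha, Prosbeta, Rpn or Rpt followed by a digit and held no second symbol. Of these 46, 13 ended in T or R, with or without a digit after it, and are called testis-type paralogs here. The other 33 are called general subunits.

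Polyadenylated RNA was sequenced from 2 libraries, 1 per group. The miR-305 library, called miR-305 males below, came from flies of the genotype da-Gal4/UAS-miR305, in which the ubiquitous driver daughterless-Gal4 expressed a miR-305 transgene. The control library, called control males, came from da-Gal4/+ flies, so both groups carried the driver. The control genotype names no UAS transgene. The transgene insertion, its genetic background and the library itself therefore cannot be told apart from miR-305 here. All flies were 15 days old and male, whole bodies were used, and no source used here states how many flies each library held.

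The proteasome is a barrel-shaped protease that degrades proteins tagged with ubiquitin. Its core, the 20S particle, is a stack of rings of alpha and beta subunits, and only the subunits beta1, beta2 and beta5 carry active sites. Its cap, the 19S particle, has a base and a lid. The base holds the Rpt ATPases, which unfold the substrate, and some Rpn subunits, among them receptors that bind ubiquitin. The lid holds other Rpn subunits, among them the enzyme that removes ubiquitin. Drosophila has extra copies of many subunit genes that are used in the male germline, and the copy Prosalpha6T is known to be needed for sperm formation. In whole males these copies are measured over the RNA of all organs, so fewer germline cells and less RNA per germline cell cannot be told apart. The files hold no dissected testis, and the testis-type naming was therefore taken from the gene symbols.

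Levels are given as FPKM, the number of fragments relative to transcript length and to all mapped fragments of the library, which allows levels of genes of different length to be compared. For the log2 ratio, 1 was added to both FPKM values and the miR-305 value was divided by the control value; the added 1 shrinks the differences of low genes. The comparison took in features whose FPKM averaged at least 1 between the libraries, which kept 11936 features, 31 of 33 general subunits and 13 of 13 paralogs. With 1 library per group there is no replicate check of any difference, and no p-value or error was computed. Sequencing depth is unknown. The yardstick used below is the spread of the log2 ratio over all 11936 features, whose median was -0.03 and whose quartiles were -0.24 and 0.18. FPKM values summed to 1176985 in miR-305 males and 967511 in control males.

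As a check of the labels, the mir-305 stem-loop had 546 FPKM in miR-305 males and a listed 0 in control males. The driver gene da had 10.8 FPKM in miR-305 males and 12.6 in control males. Of 14 yolk, eggshell and female germline genes, 1 passed the filter, the yolk protein gene Yp3, with 4.79 FPKM in miR-305 males and 5.69 in control males. Both libraries thus held little of the RNA that marks females.

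The testis-type paralogs were lower in miR-305 males in 12 of 13 cases, while the general subunits were slightly higher in 27 of 31 with the deposited scaling, and in 2 of 31 with both libraries scaled to the same sum. The median log2 ratio was -0.35 for the paralogs and 0.15 for the general subunits, a difference of -0.50. Ratios below 0 were found for 53.6% of all features and ratios above 0 for 46.4%. Of the paralogs, 11 had a ratio below that of every general subunit. The lowest general subunit was Prosalpha5, and 32.4% of all features had a ratio below its ratio. Below the lower quartile of all features lay 10 of the 13 paralogs and 0 of the 31 general subunits, where 25% of all features lie by construction. Above the upper quartile lay 0 paralogs and 12 general subunits, again beside 25% of all features.

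The sizes of these differences were small. Only Prosalpha3T was at least 2-fold lower, and no member was at least 2-fold higher. Among all features 1.74% were at least 2-fold lower and 2.36% at least 2-fold higher. Summed FPKM of the paralogs was 117 in miR-305 males and 157 in control males, which is 0.75 times as much. Summed FPKM of the 31 general subunits was 3347 in miR-305 males and 3063 in control males, which is 1.09 times as much.

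The direction for the general subunits changed with scaling to the same sum, but not with scaling to the same upper quartile. With the same upper quartile their median was 0.17, with 27 of 31 above 0. With both libraries scaled to the same sum, the median of all features shifted by -0.25 and lay at -0.27. There the general subunits had a median of -0.13 with 2 of 31 above 0, where 18.4% of all features were above 0. The paralogs had a median of -0.59 with 13 of 13 below 0, in a setting where 81.6% of all features were below 0. Relative to the median of all features, the general subunits differed by 0.17 as deposited and by 0.14 after that scaling. The paralogs differed from it by -0.33 as deposited and by -0.32 after that scaling.

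**Figure D1:**
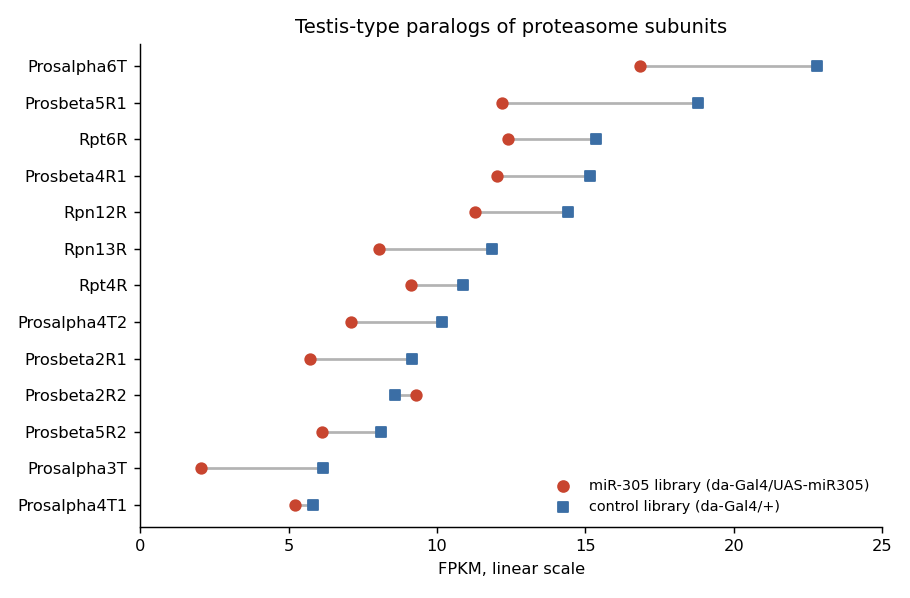
FPKM (linear axis) of the 13 testis-type paralogs in miR-305 males (circles) and control males (squares), 1 library each, with no error available. The circle lies left of the square for every paralog except Prosbeta2R2, and the longest relative distance is that of Prosalpha3T.

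Of the paralogs of the alpha ring, which gates the entry to the core, all 4 were lower in miR-305 males. Prosalpha3T (chromosome 3R, 31122527 to 31123415, dm6, a single exon) had 2.04 FPKM in miR-305 males and 6.15 in control males, 3.02-fold lower. Its log2 ratio of -1.24 was above that of only 1.22% of all features. Prosalpha3T was also among the lowest-expressed members, at rank 13 of 13 paralogs in miR-305 males and rank 12 in control males. Prosalpha6T (2L, 13232039 to 13233058, a single exon), the paralog with the highest level in both libraries, had 16.8 FPKM in miR-305 males and 22.8 in control males. The log2 ratio of Prosalpha6T was -0.42.

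The gene for the alpha4 subunit has paralogs on different chromosomes. Prosalpha4T2 (2R, 24500780 to 24502277, with 3 exons like its general counterpart) had 7.09 FPKM in miR-305 males and 10.2 in control males. Prosalpha4T1 (3R, 20748184 to 20749074, a single exon) had 5.21 FPKM in miR-305 males and 5.82 in control males. The log2 ratio was -0.46 for Prosalpha4T2 and -0.14 for Prosalpha4T1, so the paralogs of 1 subunit did not differ by the same amount, and Prosalpha4T1 stayed inside the quartiles of all features.

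Paralogs of the catalytic beta subunits showed the same inequality. Prosbeta2R1 (X, 5808954 to 5810158), a copy of the subunit with trypsin-like activity, had 5.73 FPKM in miR-305 males and 9.16 in control males, with a log2 ratio of -0.60. The other copy of that subunit, Prosbeta2R2 (3R, 5217751 to 5219528), had 9.28 FPKM in miR-305 males and 8.57 in control males, with a log2 ratio of 0.10. It was the only paralog above 0, and its ratio was -0.15 once both libraries had the same sum. As a result the order of these copies differed between libraries: Prosbeta2R2 exceeded Prosbeta2R1 in miR-305 males, and Prosbeta2R1 exceeded Prosbeta2R2 in control males.

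Prosbeta5R1 (2R, 23308654 to 23309816) and Prosbeta5R2 (2L, 17990418 to 17991951) are copies of the subunit with chymotrypsin-like activity. Prosbeta5R1 had 12.2 FPKM in miR-305 males and 18.8 in control males, and Prosbeta5R2 had 6.13 FPKM in miR-305 males and 8.11 in control males. Their log2 ratios of -0.58 and -0.35 were both below the lower quartile of all features. Prosbeta4R1 (2L, 2653046 to 2653926), a copy of a subunit without active site, had 12.0 FPKM in miR-305 males and 15.2 in control males, with a log2 ratio of -0.31.

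The paralogs of cap subunits were lower by similar amounts, with log2 ratios from -0.51 to -0.23 over 4 genes. Rpn13R (X, 5131898 to 5132985, a single exon), a copy of a ubiquitin receptor gene, had 8.03 FPKM in miR-305 males and 11.8 in control males. Rpn12R (3L, 15041631 to 15042570, a single exon), a copy of a lid subunit gene, had 11.3 FPKM in miR-305 males and 14.4 in control males. The ATPase copies were the closest to equal among them. Rpt6R (3R, 30582198 to 30583697) had 12.4 FPKM in miR-305 males and 15.4 in control males, and Rpt4R (3L, 11941912 to 11943485) had 9.12 FPKM in miR-305 males and 10.9 in control males. The medians of the core and cap paralogs were -0.42 over 9 genes and -0.31 over 4 genes.

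The paralogs differed in gene structure as well. A single exon was annotated for 6 of the 13, against 4 of the 32 general rows that could be placed on the annotation. The single-exon paralogs are Prosalpha3T, Prosalpha4T1, Prosalpha6T, Prosbeta5R2, Rpn12R and Rpn13R. Compared with its own general counterpart, a paralog had fewer exons in 8 cases, as many in 5 and more in 0. The median log2 ratio was -0.39 for the 6 single-exon paralogs (range -1.24 to -0.14) and -0.31 for the 7 others (range -0.60 to 0.10), and these ranges overlapped. No exon of a paralog overlapped an exon of another annotated gene, whereas 13 general rows had an exon that overlaps one on the opposite strand. No source used here states whether strand was used in counting, so reads of those general subunits and their neighbours cannot be told apart. Without them 19 general subunits remained, with a median of 0.10 and 3 members below 0.

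Each paralog was then set against the general subunit of the same name without the T or R suffix. A place in the particle, as used below, is likewise taken from the name. Whether each paralog protein is built in at that place was not tested. The share of the paralog in the summed FPKM of the pair is measured within 1 library and does not depend on the scaling between libraries. This share was lower in miR-305 males for 13 of 13 pairs. The general subunits of these pairs had ratios at or above the middle of all features. The share of all features with a ratio below theirs ran from 50.1% for Prosalpha4 to 90.2% for Prosbeta2. A lower share is thus the more common outcome for any feature set against most of these subunits. The median share was 6.94% in miR-305 males and 9.21% in control males. The 13 pairs rest on 10 general subunits, and pairs with the same general subunit share its values. A pair's share moves with the paralog and with the general subunit alike, and the split between them depends on the scaling. Of the 10 general subunits, 8 had a ratio above 0 as deposited and 2 with the same sum. Of the 13 paralogs, 12 had a ratio below 0 as deposited and 13 with the same sum.

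**Figure D2:**
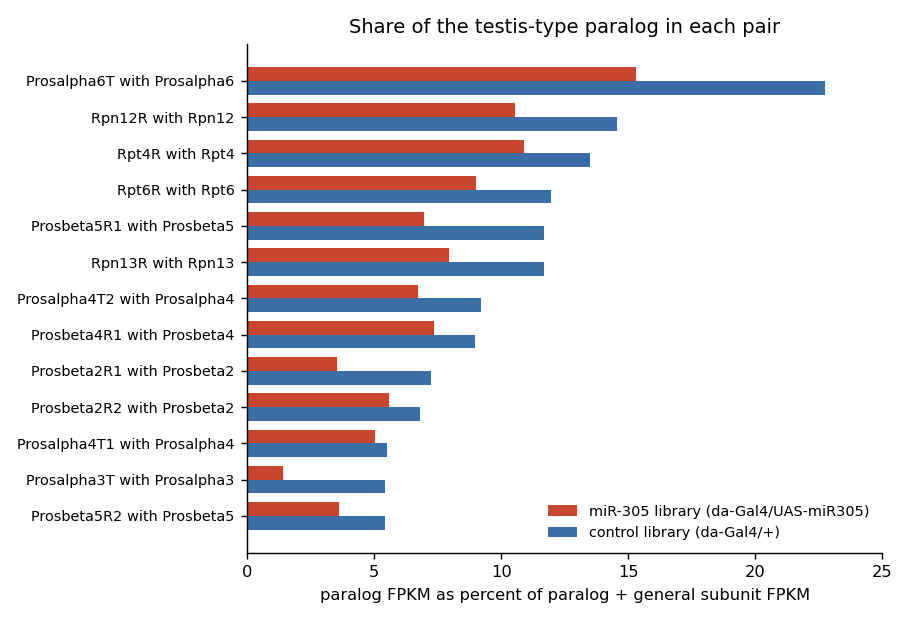
Paralog FPKM as a percentage of paralog plus general subunit FPKM, for 13 pairs in miR-305 males (upper bar of each pair) and control males (lower bar), 1 library each. The upper bar is shorter in all 13 pairs, from 1.41% against 5.43% for Prosalpha3T to 5.03% against 5.50% for Prosalpha4T1.

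The pair of Prosalpha3T and Prosalpha3 differed most. Prosalpha3 (2R, 20994900 to 20996118) had 143 FPKM in miR-305 males and 107 in control males, opposite in direction to its paralog. The share of Prosalpha3T was 1.41% in miR-305 males and 5.43% in control males, and its log2 ratio minus that of Prosalpha3 was -1.65. Prosbeta2 was also high in miR-305 males, with 157 FPKM against 118 in control males. The share of Prosbeta2R1 in its pair was 3.51% in miR-305 males and 7.23% in control males. The share of Prosbeta2R2 was 5.57% in miR-305 males and 6.79% in control males, although Prosbeta2R2 itself was not lower with the deposited scaling. Of all features, 67.1% had a ratio below that of Prosbeta2R2 and 90.2% below that of Prosbeta2. The lower share in this pair thus goes with the high ratio of Prosbeta2.

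Prosalpha6T made up the largest share of its pair in both libraries, at 15.3% in miR-305 males and 22.8% in control males. Its general counterpart Prosalpha6 had 93.1 FPKM in miR-305 males and 77.4 in control males. Prosbeta5R1 made up 6.94% in miR-305 males and 11.7% in control males, beside Prosbeta5 with 164 FPKM in miR-305 males and 142 in control males. The smallest shift was that of Prosalpha4T1, at 5.03% in miR-305 males and 5.50% in control males, with a difference in log2 ratio of -0.11.

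Where a subunit has 2 paralogs, their summed share was lower in miR-305 males too. It was 11.1% in miR-305 males and 13.8% in control males for the place of alpha4. For the place of beta2 it was 8.71% in miR-305 males and 13.1% in control males. For the place of beta5 it was 10.1% in miR-305 males and 15.9% in control males. Over all 10 places together the paralogs made up 8.94% of FPKM in miR-305 males and 12.97% in control males. The general genes therefore supplied most of the subunit RNA of whole males at every place with a paralog in both libraries.

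General subunits were among the more abundant features. In both libraries every one of the 31 general subunits had a higher level than every paralog. Their levels ran from 55.4 to 187 FPKM in miR-305 males, a span of 3.37-fold. In control males they ran from 46.9 to 174 FPKM, a span of 3.70-fold. The paralogs ran from 2.04 to 16.8 FPKM in miR-305 males and from 5.82 to 22.8 FPKM in control males. Among the general subunits the level was lower for longer transcripts, with a Spearman rho of -0.79 and a Pearson r of -0.67 in miR-305 males, and a rho of -0.77 and an r of -0.66 in control males, across 31 genes. These points are genes of the same library and share its depth and length correction, so the values are descriptions only. Length also goes along with the part of the particle. Transcripts ran from 815 to 1215 nucleotides for the core and from 995 to 3412 for the cap. In control males the median level was 137 FPKM for the core and 71.0 for the cap. Length and part were not separated. Log2(FPKM + 1) in miR-305 males and in control males had a Pearson r of 0.973 across the same 31 genes, and across the 13 paralogs it was 0.883.

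**Figure D3:**
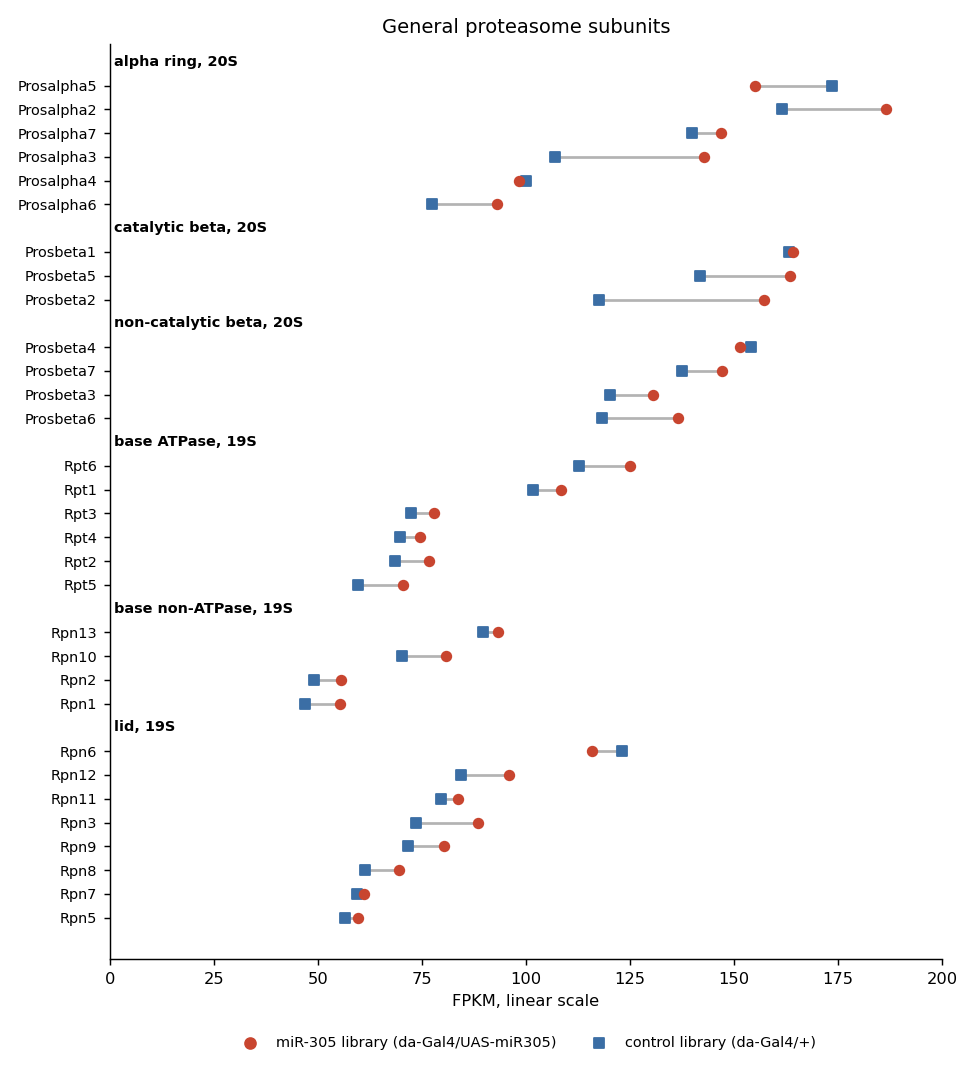
FPKM (linear axis) of the 31 general subunits that passed the filter, grouped by place in the proteasome, in miR-305 males (circles) and control males (squares), 1 library each. With this deposited scaling circles lie right of squares for all but Prosalpha4, Prosalpha5, Prosbeta4 and Rpn6, whereas with the same sum this holds for Prosbeta2 and Prosalpha3 only; the core subunits sit between 77.4 and 187 FPKM.

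In the core, Prosbeta2 and Prosalpha3 had the highest log2 ratios of all general subunits, at 0.42 and 0.41. No other core subunit exceeded the 0.26 of Prosalpha6. Scaled to the same sum, these were also the only general subunits that stayed above 0, at 0.14 for Prosbeta2 and 0.13 for Prosalpha3. Of the other catalytic subunits, Prosbeta5 had a log2 ratio of 0.20. Prosbeta1, the subunit with caspase-like activity, was near equal, with 164 FPKM in miR-305 males and 163 in control males. The catalytic subunits lay closer together in miR-305 males, where the highest was 1.04 times the lowest, against 1.39 times in control males.

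The rest of the core showed ratios on both sides of 0. Prosalpha2, the most abundant general subunit in miR-305 males, had 187 FPKM there and 162 in control males. Prosalpha5, the most abundant in control males, had 155 FPKM in miR-305 males and 174 in control males, and its log2 ratio of -0.16 was the lowest of all general subunits. Prosalpha4 (98.4 FPKM in miR-305 males and 100.1 in control males) and Prosbeta4 (152 FPKM in miR-305 males and 154 in control males) had log2 ratios of -0.02 each. Prosalpha7, Prosbeta3, Prosbeta6 and Prosbeta7 had log2 ratios of 0.07, 0.12, 0.20 and 0.10. Over the 13 core subunits that passed the filter the median was 0.12, with 10 above 0, and with the same sum it was -0.16, with 2 above 0.

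Prosalpha1, an alpha ring subunit, had 2 rows in the table, both listed at 0 in both libraries, so its level was not measured here. The annotation places Prosalpha1 (2R, 7827303 to 7828678) within the locus of the first row and a gene named Prosalpha1R (2R, 7830413 to 7831771) within that of the other. The paralogs Prosbeta4R2 and Rpt3R were not analysed here.

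Log2 ratios of the general cap subunits spanned -0.09 to 0.26, against -0.16 to 0.42 for the core. All 6 Rpt ATPases of the base had a ratio above 0 with the deposited scaling and below 0 with the same sum. The deposited values lay in a narrow range of log2 ratios from 0.09 for Rpt1 to 0.23 for Rpt5. Rpt6 was the most abundant of them, with 125 FPKM in miR-305 males and 113 in control males. Rpt5 had 70.5 FPKM in miR-305 males and 59.8 in control males. Rpt1, Rpt2, Rpt3 and Rpt4 ran from 74.7 to 108 FPKM in miR-305 males and from 68.6 to 102 FPKM in control males.

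The non-ATPase subunits of the base were also above 0 in 4 of 4 cases with the deposited scaling and in 0 of 4 with the same sum. The scaffold subunit genes Rpn1 and Rpn2 had the lowest levels of all general subunits. Rpn1 had 55.4 FPKM in miR-305 males and 46.9 in control males, and Rpn2 had 55.5 FPKM in miR-305 males and 49.0 in control males. The ubiquitin receptor genes Rpn10 and Rpn13 had log2 ratios of 0.20 and 0.06. Rpn10 had 80.8 FPKM in miR-305 males and 70.3 in control males, and Rpn13 had 93.4 FPKM in miR-305 males and 89.6 in control males.

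In the lid 7 of 8 subunits had a ratio above 0 as deposited, with a median of 0.12. Rpn3 had the highest log2 ratio, 0.26, with 88.4 FPKM in miR-305 males and 73.6 in control males. Rpn6, which bridges lid and core, was the exception, with 116 FPKM in miR-305 males and 123 in control males and a log2 ratio of -0.09. Rpn11, the enzyme that removes ubiquitin from substrates, was near equal with 83.7 FPKM in miR-305 males and 79.6 in control males. The other lid genes Rpn5, Rpn7, Rpn8, Rpn9 and Rpn12 had log2 ratios of 0.08, 0.04, 0.18, 0.16 and 0.18. Scaled to the same sum, each of these 8 ratios was below 0.

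General subunits were also split by whether they have a paralog. The 10 subunits with a paralog had a median log2 ratio of 0.16 and the 21 without one had 0.12. With the same sum both medians were below 0, at -0.12 and -0.16, with 8 of the 10 and 21 of the 21 below 0. As deposited the ranges overlapped, from -0.02 to 0.42 for the 10 and from -0.16 to 0.26 for the 21.

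Other genes of the ubiquitin-proteasome pathway lay near the median of all features. Of 23 listed genes, 20 could be matched to a single feature, and all 20 passed the filter. RpS27A and ntc lay in features with several symbols, and Ecm29 was not analysed here. Their median log2 ratio was 0.02, with 11 of 20 above 0, beside 46.4% of all features. With the same sum it was -0.26, with 2 of 20 above 0, beside 18.4% of all features. In either scaling 0 of the 20 were past 2-fold in either direction. The polyubiquitin gene Ubi-p5E was farthest from equal, with 72.5 FPKM in miR-305 males and 114 in control males, a log2 ratio of -0.64. Ubqn, a shuttle factor that carries ubiquitinated proteins, had 77.3 FPKM in miR-305 males and 60.7 in control males. Keap1, the inhibitor of the transcription factor Cnc, had 6.79 FPKM in miR-305 males and 5.26 in control males. The most abundant of the list was RpL40, which encodes ubiquitin fused to a ribosomal protein, with 1410 FPKM in miR-305 males and 1569 in control males.

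**Figure D4:**
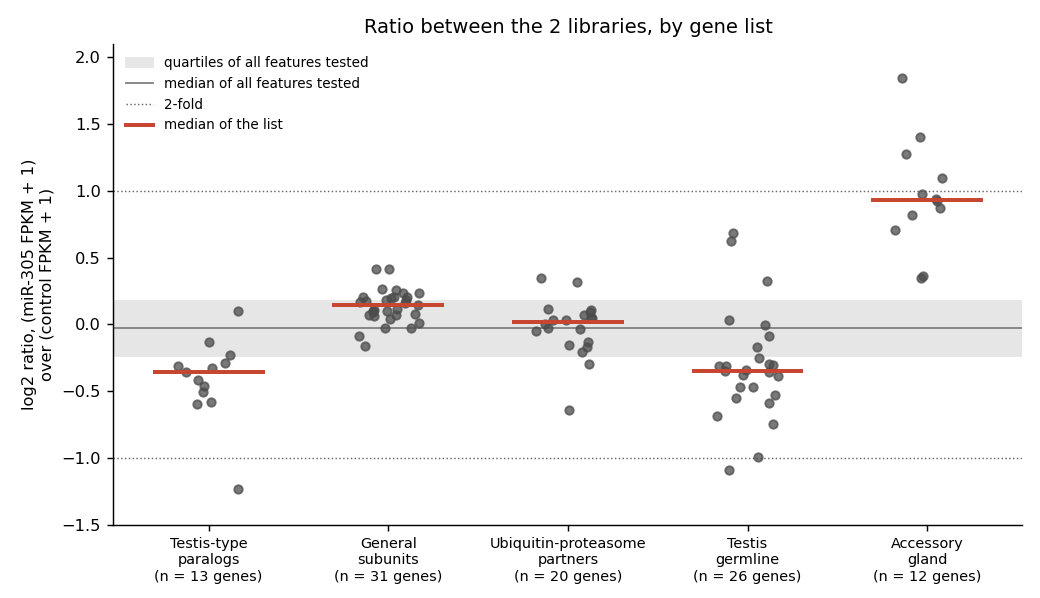
Log2 ratio of miR-305 FPKM + 1 over control FPKM + 1 (vertical axis) for each gene (points) of 5 lists, with the median of each list as a bar, the median and quartiles of all 11936 features as a line and a grey band, and dotted lines at 2-fold. The paralogs (median -0.35) and the testis germline genes (-0.35) lie lower than the general subunits (0.15, or -0.13 with the same sum). They also lie lower than the pathway partners (0.02, or -0.26 with the same sum). The genes of the accessory gland list (0.93) lie higher.

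Testis germline genes, from a list chosen with earlier results of these data known, were lower over the same libraries. Of 26 past the filter, 22 had a ratio below 0, beside 53.6% of all features, and 1 was at least 2-fold lower, beside 1.74% of all features. With the same sum 23 were below 0, beside 81.6%, and 3 were at least 2-fold lower, beside 3.02%. Their median log2 ratio was -0.35 as deposited and -0.60 with the same sum. All 27 genes of that list matched to a single feature were above 0 in both libraries, and their summed FPKM was 2635 in miR-305 males and 3573 in control males. For the 26 past the filter this was 0.74 times as much in miR-305 males. That sum rests largely on abundant genes, and much of its difference came from Mst84Da and Mst84Dd. It is therefore not a like measure to the 0.75 times of the summed paralogs. The sperm tail gene Mst84Dd was the one at least 2-fold lower as deposited, with 166 FPKM in miR-305 males and 355 in control males. Mst84Da had 469 FPKM in miR-305 males and 932 in control males, and the sperm chromatin gene Mst77F had 104 FPKM in miR-305 males and 175 in control males, and both passed 2-fold with the same sum (-1.27 for Mst84Da and -1.03 for Mst77F). Not every member was lower, as 4 of the 26 had a ratio above 0 as deposited and 3 with the same sum. Mst84Db, of the same cluster as Mst84Da, had 370.4 FPKM in miR-305 males and 240.2 in control males. The germ cell gene vas had 2.61 FPKM in miR-305 males and 1.25 in control males. The gene sa had 5.82 FPKM in miR-305 males and 4.44 in control males, and aly had 3.70 and 3.59. Mst84Dc had 279 FPKM in both, with a log2 ratio of -0.003. Mst84Db, Mst84Dc, vas, sa and aly were named after their values were seen.

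Genes listed for the accessory gland, a secretory organ of the male tract, went the opposite way. Their list too was chosen with earlier results of these data known. That list also holds Dup99B, which is named after the ejaculatory duct and not after the gland. All 12 genes of the list past the filter had a ratio above 0 with either scaling. Their median was 0.93 as deposited and 0.65 with the same sum. Of all features, 46.4% were above 0 as deposited and 18.4% with the same sum. Summed FPKM of these 12 was 168637 in miR-305 males and 82320 in control males. The most abundant was Mst57Db, with 67539 FPKM in miR-305 males and 35629 in control males. As deposited 4 genes were at least 2-fold higher, beside 2.36% of all features. They were Acp76A (119 FPKM in miR-305 males and 32.3 in control males), Acp98AB (16697 FPKM in miR-305 males and 6300 in control males), Dup99B (39538 FPKM in miR-305 males and 16319 in control males) and Mst57Da (5258 FPKM in miR-305 males and 2457 in control males). With the same sum 2 of them, Acp76A and Acp98AB, stayed at least 2-fold higher, beside 1.49% of all features, while Dup99B (log2 ratio 0.99) and Mst57Da (0.81) did not. Deposited FPKM values summed to 1176985 in miR-305 males and 967511 in control males, so they are not shares of an equal total. The median log2 ratio of all features was -0.03 as deposited and -0.27 with the same sum. How far the higher values of these genes bear on the values of other genes was not tested. The part that the makeup of the bodies played in the lower paralog values was not tested.

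**Figure D5:**
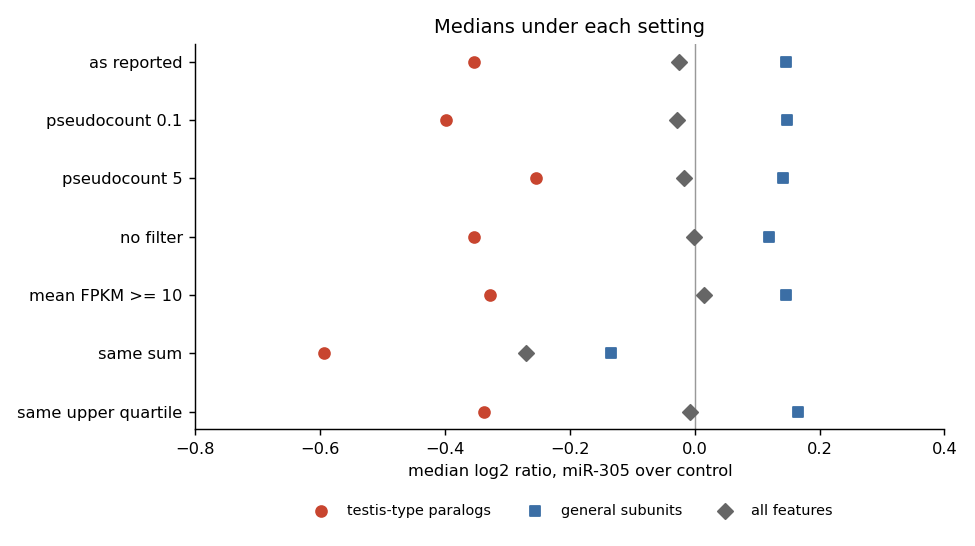
Median log2 ratio (horizontal axis) of the 13 or fewer testis-type paralogs past the filter (circles), of the general subunits (squares) and of all features (diamonds) under the reported and 6 other settings, 1 library per group. The paralog median lies left of the median of all features and the general median right of it in every one of these settings, and the general median is below 0 with the same sum only.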

How the data were processed

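Per the file headers, the table the authors deposited holds 1 FPKM value per feature and library. It was made with FastQC 0.11.5, TopHat2 2.0.13, Cufflinks 2.2.1 and the dm6 build, as the submitters' processing notes name them. The annotation, the strand setting and the sequencing depth are not given in the sources used here. A library was assigned to its group by the strain in the labels. Members were found by symbol, and placed by the Ensembl 115 annotation (BDGP6, which has dm6 coordinates), for 45 of 46 rows. The rule for names was every member and, of each other list, genes past 2-fold, the most abundant gene and the 3 with the largest absolute log2 ratio. The members and the 4 other gene lists were chosen with earlier results of these data known. A pseudocount of 1, a minimum mean FPKM of 1 and a 2-fold threshold were used, without p-values. The 634 features with several symbols entered no list. Acp70A is an older name of SP and was counted once. Other settings tried were a pseudocount of 0.1 or 5, a minimum mean of 0 or 10 FPKM, and scaling to the same sum or upper quartile. Python 3.11.15, numpy 2.4.6, pandas 2.3.3, scipy 1.17.1 and matplotlib 3.10.9 were used, and the scripts were tested on simulated data.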

Additional observations from a re-analysis of the deposited data

How the results depend on the processing

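The 5 main values were recomputed under 6 alternatives, and the median log2 ratio of the paralogs, its difference from the general subunits and the median difference within pairs stayed negative in each. The general median changed sign with the same sum (-0.13); it was 0.14 with a pseudocount of 5, 0.12 without a filter and 0.17 with the same upper quartile. The paralog median was -0.40 and -0.25 with pseudocounts of 0.1 and 5, -0.33 over the 5 paralogs with a mean FPKM of at least 10, -0.59 with the same sum and -0.34 with the same upper quartile. The difference of medians was -0.55 and -0.40 with pseudocounts of 0.1 and 5, -0.47 without a filter, -0.47 with a mean FPKM of at least 10 and -0.46 with the same sum. The median difference within pairs was -0.53 and -0.43 with pseudocounts of 0.1 and 5, and -0.49 with the same sum. The count of members past 2-fold was 0 with a pseudocount of 5, which draws ratios of low genes towards 0. It was also 0 with a mean FPKM of at least 10, which leaves out Prosalpha3T. With the same sum, 33.0% of all features past 2-fold were higher, against 57.6% with the deposited scaling. No paired analysis was possible because each group has 1 library. Prosalpha3T rests on a low level in both libraries, and without a known depth its counting error cannot be given.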
